A study of Homo sapiens with 14 samples.

Results

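The cytosolic threonine tRNAs of human cells comprise 3 isoacceptors, tRNA-Thr-AGT, tRNA-Thr-CGT and tRNA-Thr-TGT, named by the anticodon written as DNA. They were taken as every tRNA cluster of the study's list whose name begins with tRNA-Thr-, and clusters less than 40 nt apart were joined into 1 locus. This gave 18 of 493 tRNA clusters and 10 of 248 tRNA loci, made up of 2 tRNA-Thr-AGT, 3 tRNA-Thr-CGT and 5 tRNA-Thr-TGT loci. The names chose them, but the list itself holds only sites above a minimum count in most experiments of the study, called on the same libraries, so that threonine genes with few counts are not among the members. Counts were summed on the strand of the cluster from 100 nt 5′ to 25 nt 3′ of it. All 10 names matched RefSeq gene symbols of the form TRT-AGT1-1.

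The study mapped the RNA targets of TRMT2A in 14 libraries. In FICC-Seq, HEK293 cells (a human embryonic kidney line) and HAP1 cells (a near-haploid human line) were grown for 24 h with 5-fluorouracil (5FU) at 100 µM before endogenous TRMT2A was recovered with an antibody (3 libraries per line). The drug enters RNA in place of uracil, and the methyltransferase stays bound to a fluorinated base that it acts on. The labels name 5FU in the treatment text, while their condition field reads untreated. In iCLIP (3 libraries per line), UV light linked the same endogenous protein to RNA without 5FU. In miCLIP (2 libraries), HEK293 cells were transfected with a FLAG-tagged TRMT2A point mutant, in which alanine replaced a catalytic glutamate so that the enzyme stays on its substrate, and anti-FLAG antibody was used. miCLIP therefore measured an ectopically expressed protein, and no HAP1 library of that kind was analysed here.

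A transfer RNA folds into a cloverleaf, and the T-arm near its 3′ end carries the loop in which TRMT2A makes methyl-5-uridine from U54. Position 58 of the same loop is an adenosine that another enzyme methylates to 1-methyladenosine, which blocks reverse transcriptase. Threonine tRNAs are also known for modified bases of the anticodon loop, among them 3-methylcytidine at position 32 and a bulky threonylcarbamoyl adenosine at position 37. In each of these methods the cDNA ends beside the linked or blocking base, and the deposited value is the number of cDNAs at the nucleotide just 5′ of the cDNA end. A count at position 53 therefore stands for a cDNA that begins at U54, and a count at position 58 for one that begins just 3′ of A58.

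The T-arms show why the members can be told apart only in part. Each line holds positions 49 to 76 of the gene on GRCh37, counted with position 54 as the first base of the T-loop. Capitals mark the loop, positions 54 to 60, and the last 3 bases lie 3′ of the gene, where the mature tRNA carries an added CCA.
tRNA-Thr-AGT-1-1: ctgggTTCGAATcccagcggtgcctccg
tRNA-Thr-AGT-1-3: ctgggTTCGAATcccagcggtgcctcaa
tRNA-Thr-CGT-2-1: acgggTTCGAACcccgtccgtgcctgat
tRNA-Thr-CGT-5-1: gtgagTTCAAATctcaccagggcctaac
tRNA-Thr-TGT-2-1: gcgagTTCGATCctcgctggggcctcct
tRNA-Thr-TGT-3-1: gcgagTTCAATTctcgctggggcctgtg
tRNA-Thr-TGT-5-1: gcgagTTCAAATctcgctggggccttgc
tRNA-Thr-TGT-6-1: gcgagTTCAAATctcgctggggcctgct
All 10 loci had T54 and A58 in the gene, a T-stem of 5 pairs and an acceptor stem of 7 pairs. The 5 loop sequences among them were shared with other tRNAs. The loop of tRNA-Thr-AGT-1-1 and tRNA-Thr-AGT-1-3 was that of 47 of the 233 tRNA loci with a T-loop (20.2%), and the loop of tRNA-Thr-TGT-3-1 was that of 7 (3.0%).

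tRNA-Thr-AGT-1-1 (chr17:8090478-8090551, plus strand) and tRNA-Thr-AGT-1-3 (chr19:33667963-33668036, plus strand) were identical over all 74 nt of the gene, a sequence with 3 copies in GRCh37. Both overlap entries that GENCODE annotates as microRNA, MIR3676 and AC008738.2. tRNA-Thr-CGT-2-1 (chr16:14379750-14379821, plus strand) and tRNA-Thr-CGT-4-1 (chr17:29877093-29877164, plus strand) differed at 1 of 72 positions and were identical from position 54 to the end, whereas tRNA-Thr-CGT-5-1 (chr6:27586135-27586208, plus strand) differed from both in the T-loop and had a longer variable loop of 6 nt. The tRNA-Thr-TGT loci were tRNA-Thr-TGT-1-1 (chr6:28442329-28442402, minus strand), tRNA-Thr-TGT-2-1 (chr1:222638347-222638419, plus strand), tRNA-Thr-TGT-3-1 (chr14:21081949-21082021, minus strand), tRNA-Thr-TGT-5-1 (chr14:21149849-21149921, plus strand) and tRNA-Thr-TGT-6-1 (chr5:180618687-180618758, minus strand). The last overlaps an exon of the long noncoding RNA LINC01962, and its end from position 54 was identical to that of tRNA-Thr-TGT-5-1. The stretch from position 54 to 73 had from 1 to 4 copies in the genome and the stretch from 59 to 73 had from 3 to 13. Only uniquely mapping reads were counted by the authors, so a short cDNA of a repeated end could be placed only through the bases beyond it. The part of this in the differences between loci, positions and isoacceptors was not tested.

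The libraries held between 7002 and 104605 counts. The FICC-Seq libraries held 65, 143 and 83 counts at the threonine loci for HEK293, and 48, 351 and 127 for HAP1. They were 148, 139 and 84 in iCLIP of HEK293 and 134, 144 and 125 in iCLIP of HAP1. The 2 miCLIP libraries held 1873 and 4936. A locus without a count in a library allows a share of tRNA counts of up to 0.00496% in the deepest and 0.0788% in the shallowest tRNA total, which covers counting error only. Replicate 2 of FICC-Seq stood apart from the other replicates in both cell lines, with the most threonine counts, most of the tRNA-Thr-AGT counts and all of the counts 5′ of the gene. Where leaving them out changed a call, a sign or a value by over 1.5 times, the result without them is given as well. They were singled out after seeing these counts. The p values without them are therefore no new test of the shares and positions by which they stood apart. The labels list 1 in-line barcode for replicates 1 and 3 of FICC-Seq in HEK293, which were the most alike FICC-Seq pair. They differed by more than counting noise (chi-square per degree of freedom over loci 2.30). The lowest value of any group was 1.44, for replicates 2 and 3 of iCLIP in HEK293. That pair was shallower, with 4883 and 3809 tRNA counts against 19597 and 23496. The measure grows with depth, so these values are not directly comparable. Leaving out either of the FICC-Seq libraries that share the barcode ended no call among the 7 tests of threonine totals between FICC-Seq and iCLIP. The part of the shared barcode in the counts was not tested.

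Threonine tRNAs took a small part of the tRNA counts, and that part differed between the methods. In FICC-Seq their share of tRNA counts was 0.332%, 1.05% and 0.353% for HEK293, and 0.214%, 1.25% and 0.404% for HAP1. In iCLIP it was 1.89%, 2.85% and 2.21% in HEK293 and 2.46%, 2.49% and 2.68% in HAP1. In miCLIP it was 8.65% and 8.15%. Every iCLIP library was above every FICC-Seq library, and both miCLIP libraries were above all others. The mean share was 0.600% ± 0.434 (SD, n = 6) in FICC-Seq and 2.43% ± 0.342 (SD, n = 6) in iCLIP, a difference of -1.83 percentage points (two-sided exact permutation of libraries within cell lines, p = 0.005, the smallest that 400 labelings allow; adjusted p = 0.0175 over 7 tests). Without replicate 2 of FICC-Seq in both cell lines the difference was -2.10 percentage points (exact permutation, adjusted p = 0.0175).

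Among the 21 isotypes, with initiator methionine counted apart, threonine ranked 15 by mean share in FICC-Seq, 12 in iCLIP and 3 in miCLIP. The mean share in iCLIP was 4.05 times that in FICC-Seq, and the share in miCLIP was 14.0 times that in FICC-Seq. With replicate 2 of FICC-Seq left out, the mean over its other 4 libraries was 0.326%, the rank remained 15 and the ratios were 7.45 and 25.8. These counts were not divided by the amount of each tRNA in the cells, which was not measured. In HEK293 alone, FICC-Seq minus miCLIP was -7.82 percentage points on average and iCLIP minus miCLIP was -6.09. In each case the groups did not overlap, but an exact permutation test of 3 against 2 libraries cannot go below p = 0.1, the value that both reached (adjusted p = 0.2 over the 12 tests that involve miCLIP or the cell lines, none of which passed). The difference between the cell lines was within the spread of the replicates. In FICC-Seq the mean was 0.577% ± 0.406 (SD, n = 3) in HEK293 and 0.623% ± 0.553 (SD, n = 3) in HAP1 (exact permutation, p = 0.8). In iCLIP it was 2.31% ± 0.489 (SD, n = 3) and 2.54% ± 0.122 (SD, n = 3; exact permutation, p = 0.5).

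tRNA-Thr-TGT held most of the threonine counts in FICC-Seq and iCLIP. Its share of threonine counts was between 64.1% and 87.5% in the 6 FICC-Seq libraries and between 62.7% and 78.4% in the 6 iCLIP libraries, so the methods overlapped. The mean difference of 13.3 percentage points did not pass the test (exact permutation, p = 0.04, adjusted p = 0.056). Without replicate 2 of FICC-Seq, left out after seeing the data, it was 19.1 percentage points and passed (exact permutation, adjusted p = 0.0175). tRNA-Thr-CGT took less of the counts in FICC-Seq (11.0% ± 5.46, SD, n = 6) than in iCLIP (25.2% ± 6.32, SD, n = 6), which passed (exact permutation, p = 0.01, adjusted p = 0.0175). The difference without replicate 2 of FICC-Seq was -15.6 percentage points (exact permutation, adjusted p = 0.028). In FICC-Seq tRNA-Thr-AGT was at 0%, 17.5% and 2.41% for HEK293, and at 6.25%, 17.9% and 7.87% for HAP1. Both high values were replicate 2. In iCLIP it was between 4.32% and 12.7%, and the difference of 0.968 percentage points did not pass (exact permutation, adjusted p = 0.785). That difference changed sign without replicate 2 of FICC-Seq, to -3.56 percentage points (exact permutation, adjusted p = 0.0467). As these libraries were singled out partly by their tRNA-Thr-AGT counts, this value does not test the difference. In miCLIP the order was different, with 49.6% and 49.7% for tRNA-Thr-TGT, 38% and 33% for tRNA-Thr-AGT and 12.4% and 17.3% for tRNA-Thr-CGT.

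Each locus was next compared between FICC-Seq and iCLIP by its share of tRNA counts. Over all 246 tRNA loci with at least 10 counts in these libraries, 28.5% were called lower and 26.4% higher in FICC-Seq at an adjusted p under 0.05. Of the 10 threonine loci, all of which reached that minimum, 6 were called lower and 0 higher. The study's list asks for counts in most experiments, not in all. A locus could thus enter it through iCLIP and miCLIP with few FICC-Seq counts, or through FICC-Seq and miCLIP with few iCLIP counts. The part of this filter in the calls was not tested. The median difference was -0.103 percentage points over the threonine loci and -0.00274 over all loci tested. The 6 were tRNA-Thr-CGT-2-1, tRNA-Thr-CGT-4-1, tRNA-Thr-CGT-5-1, tRNA-Thr-TGT-1-1, tRNA-Thr-TGT-2-1 and tRNA-Thr-TGT-6-1, and 4 of them had no overlap between the methods. Among all 246 loci tested, 41 were lower in FICC-Seq without overlap and 46 were higher without overlap. Without replicate 2 of FICC-Seq, 7 were called lower, against 20.3% of all loci lower and 24% higher in that setting, with tRNA-Thr-AGT-1-1 and tRNA-Thr-TGT-5-1 gained and tRNA-Thr-TGT-1-1 lost. The call of tRNA-Thr-TGT-1-1, which had 0 to 13 counts in any of these libraries, was also lost when any 1 of 10 of the 12 libraries was left out. With limma in place of the permutation, 8 were called lower, against 29.7% of all loci lower and 26.4% higher.

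tRNA-Thr-TGT-6-1 differed most in percentage points. Its FICC-Seq counts were 10, 20 and 10 for HEK293, and 7, 16 and 28 for HAP1. Its iCLIP counts were 65, 41 and 24 for HEK293, and 32, 33 and 42 for HAP1. Although the iCLIP libraries were shallower, all 6 gave it a larger share, between 0.571% and 0.901% of tRNA counts. The mean was 0.0695% ± 0.0423 (SD, n = 6) in FICC-Seq and 0.726% ± 0.146 (SD, n = 6) in iCLIP (exact permutation, p = 0.005, adjusted p = 0.0117 over all loci). tRNA-Thr-CGT-2-1 was at 0.0332% ± 0.0289 (SD, n = 6) in FICC-Seq and 0.377% ± 0.160 (SD, n = 6) in iCLIP (exact permutation, adjusted p = 0.0117). Without replicate 2 its FICC-Seq mean was 0.0174% (exact permutation, adjusted p = 0.0451), and that of tRNA-Thr-TGT-6-1 was 0.0535% (exact permutation, adjusted p = 0.0259).

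tRNA-Thr-TGT-3-1 was the locus with the most counts in FICC-Seq, 273 of 817. Its counts were 37, 38 and 50 in HEK293 and 24, 54 and 70 in HAP1. Here replicate 2 did not stand apart. Its share of tRNA counts was 0.200% ± 0.0558 (SD, n = 6) in FICC-Seq and 0.235% ± 0.0883 (SD, n = 6) in iCLIP, which did not pass (exact permutation, adjusted p = 0.530). tRNA-Thr-TGT-5-1, of 73 nt like it and different at 4 positions, had FICC-Seq counts of 4, 39 and 6 for HEK293, and of 10, 125 and 7 for HAP1. The 2 libraries of replicate 2 held most of these, and the share of 0.141% ± 0.182 (SD, n = 6) against 0.376% ± 0.0559 (SD, n = 6) in iCLIP did not pass (exact permutation, adjusted p = 0.0531). Without them, a choice made after seeing the data, it was 0.0282% and passed (exact permutation, adjusted p = 0.0259).

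tRNA-Thr-AGT-1-1 led in miCLIP, with 621 and 1349 counts and 2.87% and 2.23% of tRNA counts. In FICC-Seq it had 0, 22 and 2 counts for HEK293, 3, 61 and 10 for HAP1, and in iCLIP between 4 and 14 in each library. Its genomic copy tRNA-Thr-AGT-1-3 had 5 counts over all FICC-Seq libraries, 12 over all iCLIP libraries and 368 in miCLIP. Of the 3 bases 3′ of the gene, 2 matched CCA at each of these loci and at tRNA-Thr-TGT-2-1, 1 matched at tRNA-Thr-TGT-1-1 and tRNA-Thr-TGT-6-1 and 0 at the others. The part of this match in the counts was not tested. The remaining loci, tRNA-Thr-CGT-4-1, tRNA-Thr-CGT-5-1, tRNA-Thr-TGT-1-1 and tRNA-Thr-TGT-2-1, had between 0 and 21 counts in any FICC-Seq or iCLIP library.

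Along the tRNA, FICC-Seq placed more of the threonine counts at U54 than iCLIP did, and fewer at A58. In FICC-Seq, positions 53 and 54 held 47.7%, 39.2% and 51.8% of threonine counts for HEK293, and 45.8%, 41.9% and 51.2% for HAP1. In iCLIP the shares were 9.46%, 16.5% and 3.57% in HEK293 and 7.46%, 22.2% and 3.20% in HAP1. The methods did not overlap, and the mean difference was 35.8 percentage points (exact permutation, p = 0.005, adjusted p = 0.0175). Without replicate 2 of FICC-Seq it was 38.7 (exact permutation, adjusted p = 0.0175). In both cell lines replicate 2 was the lowest library in FICC-Seq and the highest in iCLIP, and the permutation treats the libraries of a cell line as independent. The miCLIP libraries, at 41.4% and 35.3%, lay near FICC-Seq and above every iCLIP library. In HEK293 the difference of FICC-Seq from miCLIP was 7.87 percentage points (exact permutation, p = 0.3) and that of iCLIP from miCLIP -28.5 (exact permutation, p = 0.1, the smallest possible). HEK293 and HAP1 differed by less than the spread between replicates in FICC-Seq and in iCLIP (exact permutation, p = 1 in each).

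In FICC-Seq, position 58 held 46.2%, 23.8% and 41.0% of threonine counts for HEK293, and 50.0%, 9.97% and 42.5% for HAP1. The lowest value of each line was again replicate 2. In iCLIP the shares were 66.2%, 59% and 44% in HEK293 and 53.7%, 56.3% and 63.2% in HAP1, and the methods overlapped. The mean difference was -21.5 percentage points (exact permutation, p = 0.01, adjusted p = 0.0175), and without replicate 2 of FICC-Seq it was -12.2 with an adjusted p of 0.05 (exact permutation), which no longer passed. As a mean over loci, each weighted equally, the difference was -11.3 and did not pass either (exact permutation, adjusted p = 0.455). In miCLIP position 58 held 13.4% and 13.7%, below each iCLIP library.

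Between position 1 and position 52, 5′ of the target, FICC-Seq had 0%, 9.79% and 4.82% of threonine counts in HEK293 and 0%, 25.9% and 0% in HAP1. iCLIP had between 9.60% and 20.2%. The difference of -7.12 percentage points did not pass (exact permutation, adjusted p = 0.169). Without replicate 2 of FICC-Seq, left out after seeing the data, it was -12.7 and passed (exact permutation, adjusted p = 0.0175). miCLIP had 35.3% and 35.7% there, above all other libraries (exact permutation against each HEK293 group, p = 0.1, the smallest possible).

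U54 itself and the base before it shared the counts unequally between loci and methods. tRNA-Thr-TGT-3-1 had 106 counts at position 54 and 51 at position 53 over the FICC-Seq libraries, and position 54 was above 53 in 5 of 6 of them and equal in the other. In miCLIP the same locus had 21 counts at position 54 and 115 at position 53. tRNA-Thr-TGT-5-1 had 46 at position 54 and 21 at position 53 in FICC-Seq, but all 46 were in the replicate 2 libraries, and the other 4 libraries had 0 and 3. In miCLIP it had 131 and 272. tRNA-Thr-AGT-1-1 had 28 and 32 in FICC-Seq, of which the libraries other than replicate 2 held 3 and 11, and 262 and 421 in miCLIP. For every one of the 10 loci, miCLIP summed over its libraries had more counts at position 53 than at 54, although 1 of the 2 libraries had the opposite order at tRNA-Thr-CGT-2-1, tRNA-Thr-CGT-4-1 and tRNA-Thr-TGT-5-1. These pairs of values are a description, and no test was made of them.

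The threonine tRNAs were set against the 223 other tRNA loci with a T-loop in the same libraries. Counts were summed over these loci, so the most counted tRNAs weigh most. Leucine tRNAs alone held on average 29.6% of all tRNA counts in FICC-Seq and 47.1% in iCLIP. At positions 53 and 54 the other tRNAs held 68.4% ± 4.81 of their counts in FICC-Seq and 21.4% ± 6.73 in iCLIP (SD, n = 6 each). The threonine tRNAs were lower in 6 of 6 FICC-Seq libraries, with a mean difference of -22.2 percentage points, and in 6 of 6 iCLIP libraries, with -11.0 (exact permutation by sign changes within libraries, p = 0.03125 in each, the smallest that 6 libraries allow; adjusted p = 0.125 over 16 tests). At position 58 they were higher in 6 of 6 iCLIP libraries, 57.1% ± 7.83 against 25.3% ± 4.44 (SD, n = 6; exact permutation, p = 0.03125, adjusted p = 0.125). In FICC-Seq they were at 35.6% ± 15.4 against 18.7% ± 2.23 (SD, n = 6; exact permutation, p = 0.09375, adjusted p = 0.214), and replicate 2 of HAP1 was the library with the opposite sign. Without replicate 2 that difference was 25.6 percentage points over 4 libraries (exact permutation, p = 0.125, the smallest possible). None of these passed the adjustment over 16 tests, but with so few libraries none could. Even with every test at its smallest possible p, no adjusted p would fall under 0.05. The adjustment therefore decides nothing here. In miCLIP the values at positions 53 and 54 were 41.4% and 35.3% for the threonine tRNAs against 48.4% and 44% for the other tRNAs, and at position 58 they were 13.4% and 13.7% against 7.88% and 7.69%.

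The isoacceptors were compared within libraries, over those with at least 5 counts of both. At position 58, tRNA-Thr-TGT was above tRNA-Thr-CGT in each of 6 iCLIP libraries, 63.2% ± 8.88 against 37.5% ± 11.5 (SD, n = 6), a difference of 25.8 percentage points (exact permutation, p = 0.03125, adjusted p = 0.125). It was also above in each of the 5 FICC-Seq libraries that could be compared, 37.2% ± 16.2 against 13.0% ± 8.98 (SD, n = 5), a difference of 24.2 percentage points (exact permutation, p = 0.0625, the smallest possible; adjusted p = 0.167). A cDNA counted at position 58 covers the gene from position 59 on. That stretch had from 3 to 13 copies in the genome at the tRNA-Thr-TGT loci and from 3 to 9 at the tRNA-Thr-CGT loci. The part of unique mapping in these shares was not tested. The loci of an isoacceptor were not alike. Over the iCLIP libraries tRNA-Thr-TGT-6-1 held 180 of the 336 tRNA-Thr-TGT counts at position 58. Shares there ran from 39.7% (tRNA-Thr-TGT-2-1) to 76.9% (tRNA-Thr-TGT-1-1), and from 28.9% to 42.1% at the tRNA-Thr-CGT loci. Over the FICC-Seq libraries they ran from 6.25% (tRNA-Thr-TGT-1-1) to 56.0% (tRNA-Thr-TGT-6-1), and from 0% to 11.1%. In miCLIP tRNA-Thr-TGT had 11.9% and 14.1% at position 58, tRNA-Thr-AGT 19.5% and 19.7% and tRNA-Thr-CGT 0.429% and 1.05%. tRNA-Thr-CGT was thus lowest at position 58 in both miCLIP libraries, with 1 of 233 and 9 of 854 counts. tRNA-Thr-AGT and tRNA-Thr-TGT did not differ there in iCLIP beyond their spread, at 64.5% ± 12.6 and 64.9% ± 8.77 (SD, n = 5; exact permutation, p = 0.875).

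At positions 53 and 54 the isoacceptors overlapped in FICC-Seq and in iCLIP. In FICC-Seq, tRNA-Thr-TGT was at 43.9% ± 5.73 and tRNA-Thr-CGT at 49.5% ± 18.6 (SD, n = 5; exact permutation, p = 0.625). Their difference of -5.64 percentage points was -10.5 over the 3 libraries left without replicate 2 (exact permutation, p = 0.5). tRNA-Thr-AGT could be compared in 3 FICC-Seq libraries only, in which it had 10 of 25, 36 of 63 and 10 of 10 counts there. With 3 libraries the smallest p is 0.25, which tRNA-Thr-TGT and tRNA-Thr-CGT each reached against it (exact permutation). None of the 12 isoacceptor comparisons passed the adjustment, which none could have passed with so few libraries. In miCLIP tRNA-Thr-CGT was the lowest, at 20.6% and 25.5%, against 43.2% and 36.6% for tRNA-Thr-AGT and 45.3% and 37.8% for tRNA-Thr-TGT. Within tRNA-Thr-CGT the miCLIP shares ranged from 10.3% at tRNA-Thr-CGT-2-1 and 23.3% at tRNA-Thr-CGT-4-1 to 66.3% at tRNA-Thr-CGT-5-1.

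In miCLIP the anticodon arm, positions 27 to 43, held 21.2% and 22.8% of threonine counts. It held 3.94% ± 3.58 for HEK293 under FICC-Seq, 4.94% ± 8.55 for HAP1 under FICC-Seq, where replicate 2 reached 14.8% and the other libraries 0%, and 3.19% ± 1.73 and 2.85% ± 2.78 in iCLIP of the same lines (SD, n = 3 each). The arms are shown in DNA letters, 5′ to 3′, with the anticodon, positions 34 to 36, in capitals, because the counts within them fell on different bases.
tRNA-Thr-AGT-1-1: cctgtctAGTaaacagg
tRNA-Thr-CGT-2-1: tcggtctCGTaaaccga
tRNA-Thr-CGT-5-1: ctggtctCGTaaaccta
tRNA-Thr-TGT-1-1: cctgtctTGTaaacagg
tRNA-Thr-TGT-5-1: ctggtctTGTaaaccag
All 10 loci have C at position 32, T at 33 and A at 37. Position 32 was the most counted nucleotide of tRNA-Thr-CGT-2-1 in miCLIP, with 26 of 114 and 96 of 409 counts in the 2 libraries. It was also the most counted of tRNA-Thr-CGT-4-1, with 9 of 67 and 57 of 310. tRNA-Thr-TGT-1-1 had 7 of 145 and 46 of 502 counts there, and tRNA-Thr-TGT-2-1 had 6 of 156 and 15 of 287. The other members had few or none: 0 of 1970 at tRNA-Thr-AGT-1-1, 0 of 1375 at tRNA-Thr-TGT-5-1 and 0 of 187 at tRNA-Thr-CGT-5-1, although each has the same C.

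At tRNA-Thr-AGT-1-1 and tRNA-Thr-TGT-5-1 the counts of the arm lay instead largely around the anticodon and A37. Position 43, at the end of the arm, was also counted at tRNA-Thr-AGT-1-1, and it held 56 miCLIP counts at tRNA-Thr-CGT-2-1. tRNA-Thr-TGT-5-1 had 72 miCLIP counts at position 36, 72 at 37, 59 at 35 and 52 at 38. tRNA-Thr-AGT-1-1 had 61 at position 37, 54 at 38, 53 at 36 and 58 at position 43. Positions 34 to 38 together held 10.3% and 10.9% of tRNA-Thr-AGT counts, 16.7% and 11.1% of tRNA-Thr-CGT counts and 8.18% and 10.6% of tRNA-Thr-TGT counts. In the arm as a whole tRNA-Thr-CGT had 55.8% and 44.4% of its counts, tRNA-Thr-AGT 14.1% and 17.1% and tRNA-Thr-TGT 18.1% and 19%. The high value of tRNA-Thr-CGT came from tRNA-Thr-CGT-2-1 (60.2% over both libraries) and tRNA-Thr-CGT-4-1 (44.8%). tRNA-Thr-CGT-5-1 had 13.4%, below tRNA-Thr-TGT-5-1 (28.6%), tRNA-Thr-TGT-1-1 (18.5%) and tRNA-Thr-AGT-1-1 (17%). No test of these values was made.

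iCLIP had a smaller peak at position 48, at the end of the variable loop, and over its libraries 28 of the 50 counts there were those of tRNA-Thr-CGT-2-1. Positions 44 to 48 held 8.79% ± 3.77 of threonine counts in HEK293 and 7.97% ± 3.47 in HAP1 (SD, n = 3 each), against 0.466% ± 0.807 and 1.04% ± 1.81 in FICC-Seq. The 13 FICC-Seq counts there were all in the replicate 2 libraries. tRNA-Thr-CGT-2-1 held 28 of its 114 iCLIP counts at position 48, between 4 and 6 in each library, and 0 of 45 in FICC-Seq. tRNA-Thr-AGT-1-3, tRNA-Thr-CGT-4-1, tRNA-Thr-CGT-5-1 and tRNA-Thr-TGT-1-1 had 0 counts at position 48 in iCLIP.

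Counts 5′ of the gene lay almost all within 10 nt of position 1, in the leader that is removed when the tRNA matures. A cDNA that begins there covers the junction of leader and gene. In FICC-Seq they were found in replicate 2 alone, with 37 of 143 threonine counts in HEK293 and 74 of 351 in HAP1, and with 0 in each of the other 4 libraries. In iCLIP there were 3 of 148, 3 of 139 and 19 of 84 in HEK293 and 10 of 134, 2 of 144 and 8 of 125 in HAP1. Replicate 3 of iCLIP in HEK293, at 22.6%, was at the level of replicate 2 of FICC-Seq (25.9% in HEK293 and 21.1% in HAP1). In miCLIP there were 68 of 1873 and 574 of 4936. At tRNA-Thr-TGT-5-1 the most counted leader base lay 5 nt before position 1, with 9 and 29 counts in the 2 replicate 2 libraries of FICC-Seq, 0 in all iCLIP libraries and 17 and 97 in miCLIP. At tRNA-Thr-TGT-6-1 it lay 8 nt before position 1, with 4 and 4 counts in those FICC-Seq libraries, 10 over the iCLIP libraries and 14 and 53 in miCLIP. Within FICC-Seq the libraries with leader counts also had the larger tRNA-Thr-AGT and tRNA-Thr-TGT-5-1 shares. Replicate 3 of iCLIP in HEK293 did not stand out in either. Its tRNA-Thr-AGT share was 4.76%, against 6.08% and 4.32% in replicates 1 and 2. Its tRNA-Thr-TGT-5-1 share of tRNA counts was 0.3676%, against 0.3699% and 0.3481%. In miCLIP, replicate 2 had the larger leader share but less tRNA-Thr-AGT (32.96% against 37.96%) and less tRNA-Thr-TGT-5-1 (1.64% against 1.78% of tRNA counts). The part of the leader counts in these shares was not tested.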

How the data were processed

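Per the file headers and the study's methods, the authors deposited whole cDNA counts per nucleotide of hg19, signed for the strand, which is not a standard unit. The iCount web server had removed PCR duplicates by random barcodes and mapped trimmed reads with bowtie, keeping unique hits. The counts are not scaled for depth, so shares in percent were used. Members, lists and tests were chosen with earlier results of these data known. All 10 loci are named, and single positions where they hold most counts of a locus. Position 54 was found from the T-loop sequence within 15 nt of the cluster. Libraries, which the study calls biological replicates, were permuted exactly and two-sided, with Benjamini-Hochberg adjustment over 7 tests between FICC-Seq and iCLIP, 16 within libraries and 12 involving miCLIP or cell lines; loci were adjusted over all 246. Alternatives covered counts, windows, weighting, loci, libraries, filters, limma 3.58.1 in place of the permutation and a replicate block. Steps were tested on simulated data. Python 3.11.15, numpy 2.4.6, pysam 0.24.0 and matplotlib 3.10.9 were used.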

Additional observations from a re-analysis of the deposited data

How the results depend on the processing

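With the replicate number as a block, methods are flipped within 6 pairs and p cannot fall below 0.03125. The threonine share of tRNA counts (-1.83 percentage points) and positions 53 and 54 (35.8) then no longer passed. Nor did position 58 (-21.5) or the tRNA-Thr-CGT share (-14.3), and 0 threonine loci and 0 of all loci were called. The adjustment passes p at that limit only if most of the tests adjusted together reach it. In all 6 pairs FICC-Seq lay below iCLIP in the threonine share and at position 58, and above it at positions 53 and 54. For these measures and for single loci the missing calls therefore decide nothing. The tRNA-Thr-CGT share had the opposite sign in replicate 1 of HEK293 (16.9% in FICC-Seq against 15.5% in iCLIP). Same-numbered FICC-Seq and iCLIP libraries deviated together with r between 0.0320 and 0.285 over 235 loci, above 0.1 in 5 of 6 pairs, and 8 of 12 libraries correlated best with their own number. As 1 pair was below 0.1, the numbers were not taken as pairs, and whether they mark shared batches is not given in the sources used here. Position 58 did not pass as a mean over loci (-11.3) or with position 53 placed by the miCLIP maximum (-14.8), which puts tRNA-Thr-CGT-2-1 and tRNA-Thr-CGT-4-1 at position 32. Without both replicate 2 libraries of FICC-Seq, an alternative chosen after seeing the data, it was -12.2, while the tRNA-Thr-TGT share (19.1), the tRNA-Thr-AGT share (-3.56) and counts 5′ of position 53 (-12.7) passed. The tRNA-Thr-TGT share also passed without positions of 1 count (14.4) and without tRNA-Thr-AGT-1-1 (15.9), where the tRNA-Thr-AGT share was -1.04. With single libraries left out, the tRNA-Thr-TGT share ranged from 11.9 to 16.6 (passing without replicate 2 of FICC-Seq HAP1 or replicate 1 of iCLIP HEK293), the counts 5′ of position 53 from -11.0 to -5.77 (passing without replicate 2 of FICC-Seq HAP1) and the tRNA-Thr-AGT share from -0.890 to 2.70. Position 58 ranged from -24.4 to -16.4 and passed each time.

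The remaining sign changes were among differences that did not pass in any setting. At position 58, tRNA-Thr-CGT minus tRNA-Thr-AGT in FICC-Seq was -6.37 with miCLIP placement -10.3 without positions of 1 count and 16.7 without both replicate 2 libraries, and tRNA-Thr-TGT minus tRNA-Thr-AGT in iCLIP was -11.6 over loci, -5.14 without positions of 1 count and -2.38 without tRNA-Thr-AGT-1-1. At positions 53 and 54, tRNA-Thr-CGT minus tRNA-Thr-AGT was 4.62 in FICC-Seq at position 53 alone and, in iCLIP, 7.27 over loci, 4.49 without positions of 1 count and 21.2 without tRNA-Thr-AGT-1-1, and tRNA-Thr-TGT minus tRNA-Thr-AGT in iCLIP was 3.57 without that locus. tRNA-Thr-TGT minus tRNA-Thr-CGT was 24.1 in FICC-Seq and 2.48 in iCLIP with miCLIP placement. Threonine minus other tRNAs in iCLIP was 0.190 at position 53 alone. FICC-Seq minus miCLIP was -1.57 over loci and -8.91 at position 53 alone. HEK293 minus HAP1 in FICC-Seq was 0.613 in the gene body, 3.30 over loci, 2.20 without tRNA-Thr-AGT-1-1 and 1.24 without both replicate 2 libraries (0.0336 for the threonine share), and in iCLIP 1.05 over loci and 0.629 with miCLIP placement. Leaving out single libraries gave -5.71 to 8.18, -4.25 to 5.24, -13.1 to 2.52 and -11.9 to 0.478 for the isoacceptor pairs CGT minus AGT in FICC-Seq and TGT minus AGT in iCLIP at position 58, and CGT minus AGT in iCLIP and TGT minus CGT in FICC-Seq at positions 53 and 54. For HEK293 minus HAP1 it gave -2.87 to 3.45 in FICC-Seq and -4.98 to 4.53 in iCLIP at positions 53 and 54, and -0.281 to 0.268 for the threonine share in FICC-Seq. The cause of these changes was not tested. Threonine loci called ranged from 5 to 8 in the settings other than the block. Over all loci tested, those settings called from 20.3% to 29.7% lower and from 24.0% to 32.0% higher. Threonine counts of 48 to 351 per FICC-Seq or iCLIP library limit what can be said of isoacceptors and of single loci.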
